A study of Mus musculus with 4 samples.

Results

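The transcription factor Nrf2 (gene Nfe2l2), its inhibitor Keap1 and 8 genes of antioxidant defence were followed across 4 arrays of mouse dendritic cells, 1 array per group. The 10 genes are Nfe2l2, Keap1, Hmox1, Nqo1, Gclm, Gclc, Txnrd1, Slc7a11, Prdx1 and Sod2, among 12393 genes that the platform annotation names singly on the array. All probe sets annotated to them were taken, 20 of 22690, with no choice by signal. Of these, 15 name 9 of the genes singly. The other 5 carry both Prdx1 and Gm21399, a predicted gene, so their signals are given below but enter no count for Prdx1.

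The cells were labelled as CD11c+ dendritic cells of IL10-/- genotype, and that genotype was shared by all 4 groups, the control included. For 6 h they received media alone (the control), SEA, LPS, or both agents (SEA/LPS). LPS is lipopolysaccharide, a bacterial outer membrane component sensed through TLR4. What SEA stands for is not spelled out in the labels; in dendritic cell studies it is commonly schistosome egg antigen. The labels name neither the tissue of origin nor doses, separate cultures or animals, and all 4 samples carry the same lot label. With 1 array per group no difference below has a replicate check or a test, and precision is limited by this number of arrays. In total RNA of a cell population, fewer cells of a type and less RNA per cell cannot be told apart.

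Nrf2 is held in the cytoplasm by Keap1, an adaptor that presents it for ubiquitination and degradation. Oxidants and electrophiles modify Keap1, and Nrf2 then enters the nucleus, pairs with small Maf proteins and binds antioxidant response elements in front of genes of glutathione and thioredoxin metabolism, heme breakdown and quinone detoxification. Its activity is set largely at the level of protein, so a transcript level of Nfe2l2 does not measure it. In myeloid cells the pathway is known as a brake on oxidative damage and inflammatory gene expression, while Sod2 and Slc7a11 are also known targets of other stress and inflammatory regulators, NF-kappaB and ATF4 among them.

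Proximal promoter sequence was available for 8 of the 10 genes in the RefSeq promoter table of mouse build GRCm38.p6, which holds none for Hmox1 or Gclc. The 250 bases before each start were searched on both strands for TGACNNNGC, the core letters of the antioxidant response element, and for TGATGNAA, letters of the element bound by ATF4 with C/EBP proteins. TGACNNNGC occurred in 4 of the 10 promoters listed for these 8 genes (1 each of Nfe2l2, Gclm, Txnrd1 and Prdx1), against 10.2% of all 32851 promoters of the table. The Prdx1 match, GCTGAGTCA, overlaps an AP-1 motif, TGAGTCA, and no other match overlapped that motif or its reverse complement TGACTCA. TGATGNAA occurred in 1 of the 10, that of Slc7a11, which held it in both orientations, against 3.45% of all promoters. No match was found in these windows of Keap1, Nqo1 and Sod2. The following 4 windows are shown because their genes read in different ways on the arrays, Nfe2l2 and Gclm low with LPS and Slc7a11 and Txnrd1 high. Capitals mark the matches, and each is written 5′ to 3′ on the strand of its gene. A match describes letters in the reference and is no measurement of binding in these cells.
Nfe2l2 (chr2:75704664-75704913, minus strand, first matched base 240 bases before the start): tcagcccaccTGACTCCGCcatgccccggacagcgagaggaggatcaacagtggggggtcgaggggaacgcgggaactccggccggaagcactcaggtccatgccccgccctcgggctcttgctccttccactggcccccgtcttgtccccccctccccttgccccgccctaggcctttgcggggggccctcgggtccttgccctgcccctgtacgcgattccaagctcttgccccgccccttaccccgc
Gclm (chr3:122245307-122245556, plus strand, first matched base 134 bases before the start, motif on the reverse strand): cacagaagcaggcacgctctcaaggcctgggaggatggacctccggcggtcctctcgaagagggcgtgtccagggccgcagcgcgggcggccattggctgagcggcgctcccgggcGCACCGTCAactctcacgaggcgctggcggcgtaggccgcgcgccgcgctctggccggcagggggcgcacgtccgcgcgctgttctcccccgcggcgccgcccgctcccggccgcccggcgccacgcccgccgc
Txnrd1 (chr10:82858956-82859205, plus strand, 1 of 3 starts listed for the gene and the 1 with a match, first matched base 92 bases before the start, motif on the reverse strand): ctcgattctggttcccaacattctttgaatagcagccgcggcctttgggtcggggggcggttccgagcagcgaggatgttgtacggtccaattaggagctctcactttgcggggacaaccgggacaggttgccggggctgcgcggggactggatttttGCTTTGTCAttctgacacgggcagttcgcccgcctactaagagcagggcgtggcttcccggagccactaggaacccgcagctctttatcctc
Slc7a11 (chr3:50443614-50443863, minus strand, first matched bases 66 and 47 bases before the start): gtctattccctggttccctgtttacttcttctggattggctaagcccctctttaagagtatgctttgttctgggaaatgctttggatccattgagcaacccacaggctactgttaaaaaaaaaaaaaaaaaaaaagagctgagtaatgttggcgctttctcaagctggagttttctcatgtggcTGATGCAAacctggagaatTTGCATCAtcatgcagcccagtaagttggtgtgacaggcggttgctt

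The signals are linear array intensities. Their trimmed means were near equal on the 4 arrays, from which scaling to a common mean per array before deposit was inferred. Values at or below a signal of 33.3, the 40th percentile of all 4 arrays pooled, were set to that floor before log2 was taken, and 9473 genes had at least 1 array above it. All 20 probe sets of the 10 genes lay above the floor on all 4 arrays, so none of their differences is a bound. Counts of higher or lower genes go by size, at 2-fold or more.

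Of the dendritic cell markers listed for the check of cell identity, 10 of 10 were measured and 9 lay above the floor on every array (Itgax, which encodes CD11c, from 1851 with LPS to 2732 in media). Flt3 was at the floor with SEA/LPS and read 62.2 in media. Cd209a (36.3 to 49.8), Ciita (44.7 to 94.7) and Zbtb46 (77.9 to 104.5) also read low on all 4 arrays. Batf3 ran from 193 to 486 and Irf8 from 490 to 1911, and Cd74, H2-Ab1 and H2-Eb1 read at least 3437. Macrophage or monocyte markers were also present, 5 of 5 measured above the floor on all 4 arrays, with summed signals from 8439 in media to 11484 with SEA/LPS. The 3 T cell markers named on the array (Cd3e, Cd3g and Cd3d) were at the floor on all 4 arrays, and summed signals of B cell, NK cell, neutrophil, mast cell, erythroid and stromal markers stayed between 0 and 239. The 3' over 5' signal goes up as RNA degrades. For Gapdh it ran from 2.21 (media) through 2.42 (LPS) and 2.69 (SEA) to 3.12 (SEA/LPS). For Actb the order differed, with 1.20 (media), 1.24 (LPS), 1.26 (SEA/LPS) and 1.37 (SEA). The SEA/LPS array had the lowest median signal, 45.05 beside 51.5 to 53.2 on the others. Of its probe sets 57.3% lay above the floor, beside 60.6% to 61.1% on the others. Hybridisation controls read 0.55 log2 brighter with LPS than with media and 0.31 brighter with SEA/LPS. The part of these values in the differences below was not tested.

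The regulator pair read in opposite ways with LPS. Nfe2l2 had signals of 1549, 1400, 912 and 1625 on the media, SEA, LPS and SEA/LPS arrays, an order kept wherever 4 signals are given below. The LPS array was the low one of the 4, and the other arrays lay between 1400 and 1625. The log2 difference of LPS over media was -0.76 (1.70-fold lower), and that of SEA/LPS over media was 0.07, a value whose sign turned under quantile normalization (-0.11) and scaling to the hybridisation controls (-0.24). Keap1 had signals of 487, 415, 736 and 599.9 on the probe set used. Its other probe set read 224, 199, 378 and 231. Both were highest with LPS and lowest with SEA, with log2 differences of LPS over media of 0.60 and 0.75, but they placed SEA/LPS differently: 0.30 over media on the first and 0.05 on the second.

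Gclm, Nqo1 and Hmox1 were low with LPS and closer to media with SEA/LPS. This was not shared by all antioxidant genes of the list, as Slc7a11, Txnrd1 and Sod2, given below, were high with LPS. Gclm, the modifier subunit of the glutamate-cysteine ligase that starts glutathione synthesis, read 1068, 1038, 499.7 and 871. It was 2.14-fold lower with LPS than with media, or -1.10 log2. Nqo1, a quinone reductase, read 156, 154.5, 79.1 and 135. Its LPS signal was 1.97-fold below media (-0.98), just under the size counted. Hmox1, the inducible heme oxygenase that breaks heme into biliverdin, iron and carbon monoxide, read 1117, 952, 626 and 998. Its LPS signal was 1.79-fold below media (-0.84). In each of these 3 genes, as in Nfe2l2, the LPS array was lowest and the media, SEA and SEA/LPS arrays lay above it. Each of the 4 is read by 1 probe set, so no second probe set bears on them.

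Gclc, the catalytic partner of Gclm, gave no clear reading. The probe set used had signals of 197, 168, 172 and 157, while the other, whose ID marks possible cross-hybridisation, read 192, 222, 121 and 162. The first had a log2 difference of -0.19 for LPS over media and the second of -0.67. For SEA/LPS over LPS their signs were opposite, at -0.14 and 0.42.

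Slc7a11, like Gclm a gene of glutathione supply, was high with LPS where Gclm was low. It encodes xCT, the cystine-importing subunit of the cystine-glutamate exchanger, and read 200.3, 230, 587 and 553. Both arrays with LPS stood above both without it. The signal was 2.93-fold higher with LPS than with media (1.55 log2) and 2.76-fold higher with SEA/LPS (1.46).

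Sod2, the mitochondrial manganese superoxide dismutase, read 3542, 3782, 9445 and 6950 on the probe set used. The other 2 probe sets read 2796, 2523, 6761 and 4949, and 58.2, 65.0, 148 and 90.3. On all 3 the LPS array was highest and SEA/LPS came next. The log2 differences of LPS over media were 1.42, 1.27 and 1.35, and those of SEA/LPS over media were 0.97, 0.82 and 0.63, all under 2-fold as deposited. At a common 75th percentile the first came to 1.18, past 2-fold.

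Txnrd1, the cytosolic reductase that recharges thioredoxin, read 988, 1078, 1577 and 1372 on the probe set used. Its other probe sets read 262, 249, 469.8 and 268, and 109.8, 104, 166 and 106, the latter with an ID that marks possible cross-hybridisation (_x_at). All 3 were highest with LPS, by 0.68, 0.84 and 0.60 log2 over media. They disagreed on SEA/LPS, which was 0.47 above media on the first and at 0.03 and -0.05 on the others.

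The 5 probe sets shared by Prdx1, a peroxiredoxin that reduces peroxides with electrons from thioredoxin, and Gm21399 were lowest in media. One of them read 5264, 6334, 7670 and 8493. Over the 5, the log2 difference of LPS over media ran from 0.48 to 1.05 and that of SEA/LPS over media from 0.42 to 1.08. That of SEA over media ran from 0.23 to 1.03, and the highest of these came from a probe set that read 2645 in media and 5415 with SEA, while the next highest was 0.31. Most of the 5, that probe set included, carry the ID ending _x_at, which marks possible cross-hybridisation. SEA/LPS over LPS lay between -0.11 and 0.15.

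**Figure D1:**
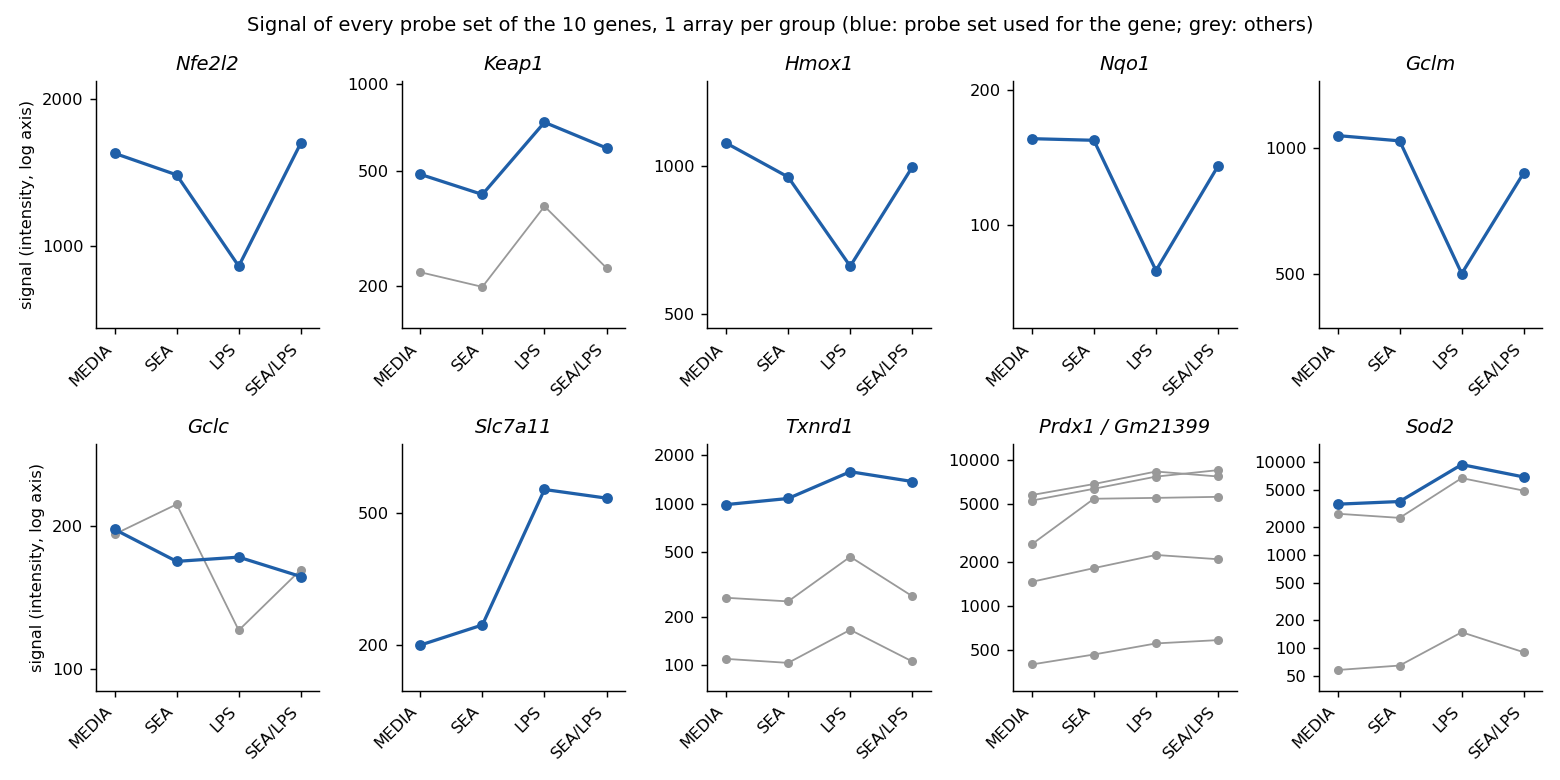
Signal of each probe set (y axis, linear intensity on a log axis, own range per panel) on the arrays of media, SEA, LPS and SEA/LPS (x axis, 1 array each). Blue marks the probe set used for a gene, grey the others, and lines only join the points of a probe set. Nfe2l2, Hmox1, Nqo1 and Gclm dip on the LPS array (Gclm 1068 in media and 499.7 with LPS), while Slc7a11 and Sod2 are high on both arrays with LPS.

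LPS over media thus split the 9 genes measured singly. At 2-fold, 2 were higher (Slc7a11 and Sod2) and 1 lower (Gclm), where 6.06% of all 9473 measured genes were higher and 8.43% lower. By sign, 4 of the 9 were above 0 and 5 below, their median was -0.19 and that of all measured genes was -0.06. Scaling to the hybridisation controls moved that all-gene median to -0.56, so differences were also taken relative to it. On that basis, over the 4 scalings, Gclm ranged from -1.13 to -0.98, Nqo1 from -0.97 to -0.86, Hmox1 from -0.89 to -0.71 and Nfe2l2 from -0.88 to -0.64. Keap1 ranged from 0.60 to 0.72, Txnrd1 from 0.58 to 0.80, Sod2 from 1.04 to 1.54 and Slc7a11 from 1.56 to 1.67, and Gclc stayed between -0.19 and -0.04. No sign among the 9 turned in this comparison under any of the 4 scalings, before or after the median was taken off. Before it was, Gclm (-0.96) missed 2-fold at a common 75th percentile, Slc7a11 and Sod2 (0.86) missed it under the hybridisation controls, and Keap1 came to 0.04 and Txnrd1 to 0.12 under those controls.

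With SEA alone the 9 genes read near their media level. None of the 9 reached 2-fold, where 0.644% of all genes were higher and 0.633% lower. The lowest differences were those of Hmox1 and Keap1, both -0.23, and the highest was that of Slc7a11, 0.20. The median of the 9 was -0.04 and that of all measured genes was 0.

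SEA/LPS over LPS, which asks what SEA adds in cells that also meet LPS, placed 4 genes together at the high end. Nfe2l2 was 1.78-fold higher (0.83 log2), Gclm 1.74-fold (0.80), Nqo1 1.71-fold (0.78) and Hmox1 1.59-fold (0.67). None of the 9 reached 2-fold, where 1.39% of all genes were higher and 3.47% lower, and the 95th percentile of all measured genes was 0.69. Under the hybridisation controls Nfe2l2 (1.07), Gclm (1.04) and Nqo1 (1.02) passed that size, where 3.14% of all genes were higher and 1.41% lower. Among the other 5 genes the differences were Sod2 -0.44, Keap1 -0.29, Txnrd1 -0.20, Gclc -0.14 and Slc7a11 -0.09, and the last 3 turned to 0.04, 0.10 and 0.15 under the hybridisation controls. This comparison and LPS over media share the LPS array, so its reading of each gene enters them with opposite sign.

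**Figure D2:**
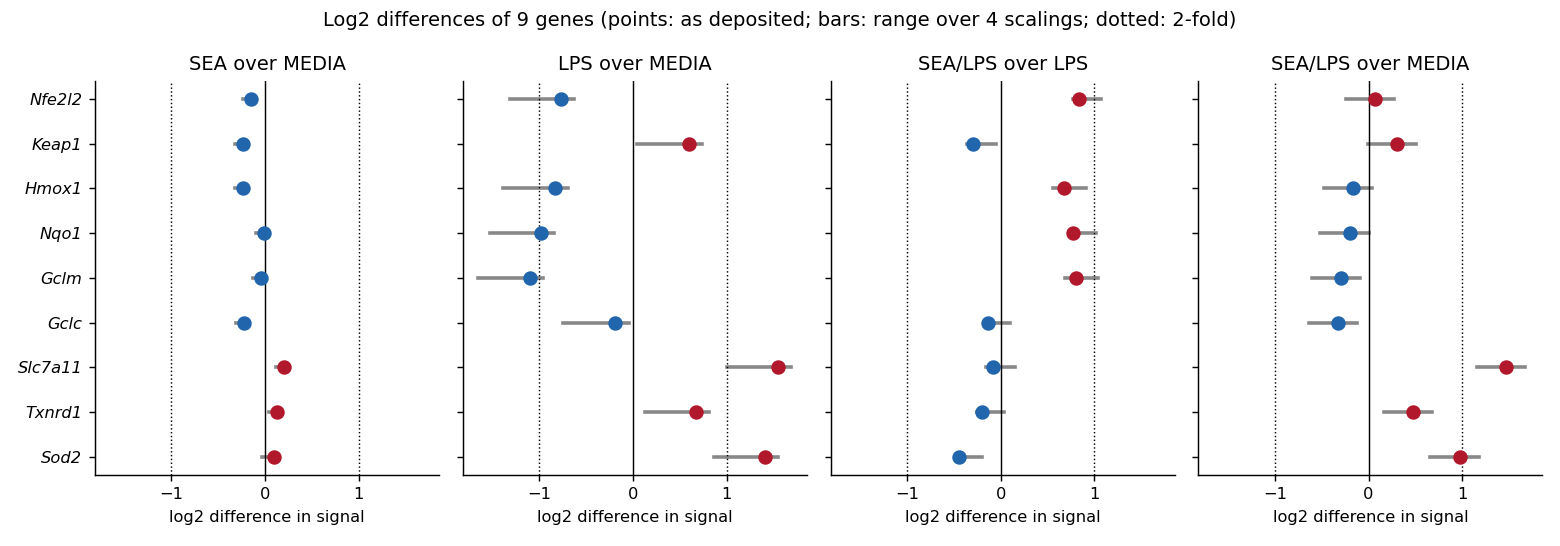
Log2 difference in signal (x axis) of the 9 genes measured singly (y axis) in 4 comparisons, 1 array against 1 array each. Points are values as deposited (red above 0, blue below), bars the range over 4 scalings of the arrays, and dotted lines 2-fold. Nfe2l2, Hmox1, Nqo1 and Gclm lie left of 0 for LPS over media and right of it for SEA/LPS over LPS, whereas Slc7a11 lies near 0 in the latter (-0.09).

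SEA/LPS over media does not use the LPS array, and in it Nfe2l2, Hmox1, Nqo1 and Gclm lay between -0.29 and 0.07. Slc7a11 was the 1 gene of the 9 past 2-fold, where 4.54% of all genes were higher and 7.05% lower, and Sod2 followed at 1.96-fold. Hmox1 (-0.16), Nqo1 (-0.20) and Gclm (-0.29) were within 1.23-fold of media as deposited. With each array set to a common 75th percentile these were 0.04, 0.0007 and -0.09, under quantile normalization -0.33, 0.003 and -0.45, and under the hybridisation controls -0.47, -0.51 and -0.61. Against SEA alone, SEA/LPS gave Slc7a11 as the 1 gene past 2-fold again (2.40-fold higher), where 4.67% of all genes were higher and 6.38% lower, followed by Sod2 (0.88, and 1.08 at a common 75th percentile), Keap1 (0.53) and Txnrd1 (0.35).

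The SEA difference with LPS (SEA/LPS over LPS) and without it (SEA over media) rest on separate arrays. Both still share arrays with LPS over media above, so a low reading on the LPS array raises the first minus the second. The first minus the second was 0.98 log2 for Nfe2l2, 0.90 for Hmox1, 0.84 for Gclm and 0.79 for Nqo1. For 7142 genes above the floor on all 4 arrays the median of this quantity was -0.02, and its 5th and 95th percentiles were -1.04 and 0.86. Nfe2l2 and Hmox1 lay above the latter and Gclm and Nqo1 below it. Sod2 was at -0.54, Txnrd1 at -0.33, Slc7a11 at -0.29, Keap1 at -0.06 and Gclc at 0.09. Slc7a11 turned to 0.04 and Keap1 to 0.26 under scaling to the hybridisation controls.

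**Figure D3:**
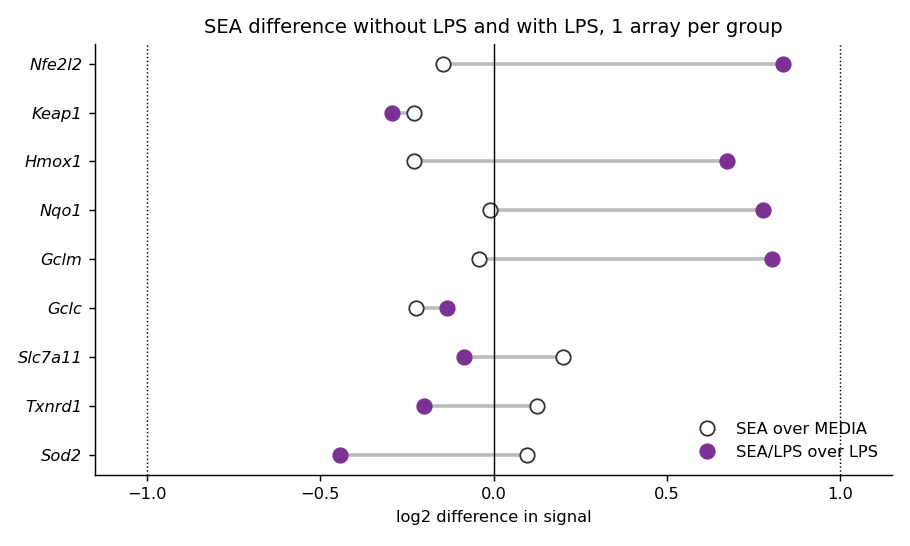
Log2 difference in signal (x axis) that went with SEA in the absence of LPS (open points, SEA over media) and in its presence (filled points, SEA/LPS over LPS) for the 9 genes (y axis), 1 array per group; dotted lines mark 2-fold. Nfe2l2, Hmox1, Nqo1 and Gclm have filled points between 0.67 and 0.83 and open points at or below -0.01.

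A wider list of 63 pathway genes outside the 10 was read the same way, of which 51 were measured singly. With LPS over media, 3 of the 51 were at least 2-fold higher and 7 lower, where the shares of all measured genes were 6.06% and 8.43%. Of the 51, 36 were below 0, with a median of -0.36, and of all 9473 genes 5045 were, with a median of -0.06. Under the hybridisation controls none of the 51 was higher and 21 lower, where 2.98% of all genes were higher and 25.5% lower. Among regulators, Bach1, a repressor that competes with Nrf2 at its elements, was 2.03-fold lower (signal 304 in media and 149.9 with LPS), and its other probe set, at the floor with LPS, was at least 3.97-fold lower. Mafk, a small Maf partner of both, was 2.19-fold higher (123.5 and 270.0). Sqstm1, the autophagy receptor p62 that binds Keap1, stood at 0.90.

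The glutathione branch held 18 measured genes, of which 2 were higher with LPS and 1 lower, beside 6.06% and 8.43% of all genes. Slc3a2, the heavy chain that carries xCT to the membrane, was 2.07-fold higher (signal 3025 in media and 6247 with LPS), beside Slc7a11 above. Slc7a8, another amino acid transporter light chain that pairs with it, was 2.24-fold higher. Gstp1, a glutathione transferase, was 2.13-fold lower (1091 and 512), and the microsomal glutathione transferases Mgst1 (1.98-fold lower) and Mgst3 (1.72-fold lower) were under 2-fold. Gpx4 read -0.61 log2 on the probe set used and -1.12 on another.

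Of the 26 measured genes of the other branches, 0 were at least 2-fold higher with LPS and 5 lower on the probe set used, beside the same 6.06% and 8.43% of all genes. Outside those 5, another probe set of Prdx2 read -1.10 log2, with -0.13 on that used. For Srxn1 another read -1.31, with -0.32 on that used and -0.08 and 0.20 on the others. Txn2, mitochondrial thioredoxin, was 2.21-fold lower, with -1.03 log2 on another probe set and at least 6.02-fold lower on a further one that was at the floor with LPS. Catalase (Cat), which splits hydrogen peroxide, was 2.06-fold lower (signal 621 in media and 302 with LPS), with -1.35 on another. In heme breakdown Blvra, biliverdin reductase, was 2.31-fold lower (322 and 139.5), and Hmox2, the constitutive heme oxygenase, stood at -0.92. Of the genes that supply NADPH, Taldo1, transaldolase of the pentose phosphate pathway, was 2.57-fold lower (1030 and 400.2), and Idh1, the cytosolic isocitrate dehydrogenase, was 17.9-fold lower, with -2.37 log2 on its other probe set; both Idh1 probe sets carry the ID ending of possible cross-hybridisation (_s_at).

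SEA/LPS over LPS had 3 of the 51 genes at least 2-fold higher and 1 lower, where 1.39% of all genes were higher and 3.47% lower, with a median of 0.12 against -0.01 for all measured genes. Hmox2 was 2.16-fold higher (signal 215 with LPS and 465 with SEA/LPS), Txn2 2.13-fold and Idh1 3.33-fold, while Sqstm1 was 2.05-fold lower (5803 and 2830). Of the other probe sets of Txn2, 1 read 0.35 log2 and 1, at the floor with LPS, was at least 1.64-fold higher, while that of Idh1 read 0.26. Bach1 was at 0.69, with its other probe set, at the floor with LPS, at least 2.67-fold higher. Gsto1, a glutathione transferase, was at -0.88, with -0.20 on its other probe set, Slc3a2 at -0.83 and Idh2 at -0.92. Here too the LPS array is shared with the comparison above.

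With SEA alone none of the 51 reached 2-fold on the probe set used, where 0.644% of all genes were higher and 0.633% lower. The median was -0.001. Another probe set of Txn2 read -1.32 log2 (200.4 in media and 80.3 with SEA). The Txn2 probe set used read 0.19 and the remaining probe set -0.26. For Prdx2 another probe set read -1.44 (266.6 and 98) and that used 0.37. Osgin1, an oxidative stress-induced growth inhibitor gene at the floor in media, was at least 1.64-fold higher, and Prdx4 read -0.64, with 0.52 and 0.17 on its other probe sets, while Ggt5 was at 0.61 and Gstm2 at 0.59. With SEA/LPS over media 1 was higher, Slc7a8 (2.52-fold), and 3 were lower, Idh1 (5.36-fold), Idh2 (2.80-fold) and Txnrd2 (2.06-fold), where 4.54% of all genes were higher and 7.05% lower. Cbr1 (-0.96), Taldo1 (-0.80), Gstp1 (-0.80) and Cat (-0.75) followed, and the median was -0.18 against -0.12 for all measured genes. The Txnrd2 signal with SEA/LPS, 34.9, lay just above the floor. In this comparison other probe sets were past 2-fold for Txn1 (1.08 log2, with 0.57 on that used) and Prdx2 (-1.09, with 0.09). For Txn2 1 other read -1.88 and 1 read -0.67, with -0.06 on that used. Against SEA, SEA/LPS gave 1 higher, Slc7a8 (2.98-fold), and 2 lower, Idh1 (4.26-fold) and Idh2 (2.11-fold), where 4.67% of all genes were higher and 6.38% lower. Taldo1 (-0.92), Cbr1 (-0.90) and Txnrd2 (-0.84) came next, and Ggt5, at the floor with SEA/LPS, was at least 1.73-fold lower. Another probe set of Cul3 read 1.17 log2 here, with 0.29 on that used and 0.34 on the remaining one.

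**Figure D4:**
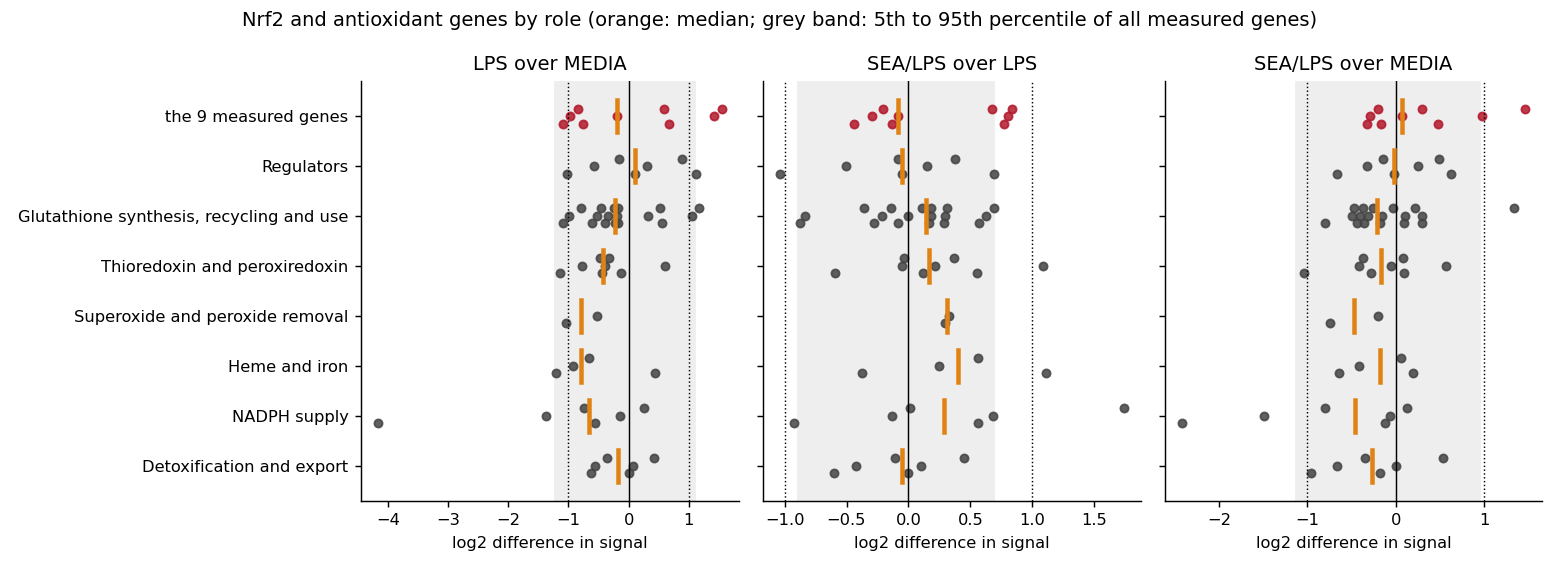
Log2 difference in signal (x axis) of the 9 genes (red) and of 51 further pathway genes (dark grey) by role (y axis) in 3 comparisons, 1 array against 1 array each, with own x range per panel. Orange bars are medians, the grey band spans the 5th to the 95th percentile of all 9473 measured genes (-1.22 to 1.11 for LPS over media) and dotted lines mark 2-fold. Idh1 stands apart at -4.16 for LPS over media, and vertical scatter within a role has no meaning.

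The genes closest in pattern were found for the members past 2-fold in at least 1 comparison. Likeness was the Euclidean distance between the 4 log2 signals, each gene centred on its own mean, over 7142 genes above the floor on all 4 arrays. For Gclm the 5 nearest were U2af2 (distance 0.04), S100a13 (0.06), Magel2 (0.06), Mtres1 (0.06) and Mtch1 (0.07). For Slc7a11 they were Morc3 (0.06), Aff1 (0.08), Ccl22 (0.12), Il1rap (0.12) and Ppa1 (0.13), and for Sod2 Dennd5a (0.05), Gpr85 (0.10), Ppp4r2 (0.12), Krtap5-1 (0.13) and Csf1 (0.14). With 4 arrays per gene such closeness is a description of these arrays.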

How the data were processed

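The values are the authors' deposited table, linear intensity per Affymetrix probe set, with 2% trimmed means of 150.1 on each of the 4 arrays. The software, background step and scaling rule were not given in the sources used here. A common mean per array hides a difference in total RNA and sets how many genes read as higher or lower. Symbols came from the platform annotation, updated through Entrez identifiers (20351 of 20380 single-symbol probe sets matched GRCm38.p6). Intensities were used as deposited, floored at 33.3, and log2 was taken. The probe set with the highest mean floored log2 stood for a gene. With 1 sample per group no test was run. The calling step was tested on copies of the media array with known large changes planted in bright probe sets (Python 3.11.15, pandas 2.3.3, numpy 2.4.6). No noise was added, so changes near 2-fold or near the floor were not tested. The genes and lists were chosen with earlier results of these data known. Named by rule were the 10 genes, wider-list genes past 2-fold, up to 4 more per comparison, and the 5 nearest in pattern. Alternatives were 3 other scalings, 2 other floors, a pseudocount of 32, other probe set choices and a 1.5-fold size.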

Additional observations from a re-analysis of the deposited data

Results flagged for a closer look

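The SEA difference had opposite directions without and with LPS in 7 of the 9 genes measured singly, and in 49.7% of the 7142 genes above the floor on all 4 arrays. With 1 array per group the difference was not tested. With LPS minus without, it was 0.98 log2 for Nfe2l2, 0.90 for Hmox1, 0.79 for Nqo1 and 0.84 for Gclm, genes whose SEA over media values were between -0.23 and -0.01, the last that of Nqo1. It was -0.33 for Txnrd1, -0.29 for Slc7a11 and -0.54 for Sod2. Under scaling to the hybridisation controls Txnrd1 came to -0.002 and Slc7a11 to 0.04, and both had the same direction without and with LPS, as did Sod2 under quantile normalization. Over the settings tried, 5 to 7 genes had opposite directions (5 of 8 without suffixed probe sets), while the 4 genes first named were among them each time. They stayed at or above 0.72 under every scaling tried, but Nqo1 came to 0.60 under log2(signal + 32).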

How the results depend on the processing

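Over 9 alternative settings, 400 log2 differences of the 9 genes were recomputed, of which 20 changed sign and 11 crossed 2-fold. The 2 other floors and leaving out _s_at and _x_at probe sets could change none of them. The probe sets used for the 9 genes lay above both floors and carry neither ending. All changes thus came from the remaining settings, and the totals make the values look more stable than those settings do. None of the sign changes concerned LPS over media or a difference past 2-fold, and the cause of the changes below was not tested. At 1.5-fold the count of genes past the size was 8 for LPS over media (3 at 2-fold), 4 for SEA/LPS over LPS (0 at 2-fold), and 2 for SEA/LPS over media and 2 over SEA (1 each at 2-fold). Of all measured genes 35.1%, 21.2%, 30.1% and 29.8% passed 1.5-fold in these comparisons. Scaling to the 75th percentile gave 2 for SEA/LPS over media and 2 over SEA, the gene added being Sod2 (1.18 and 1.08), and took Gclm to -0.96 for LPS over media. At that scaling 604 of all 9478 measured genes were higher and 427 lower for SEA/LPS over media. Over SEA these were 588 and 364. Scaling to the hybridisation controls gave 3 for SEA/LPS over LPS, Nfe2l2, Nqo1 and Gclm, all higher, where 3.14% of all genes were higher and 1.41% lower. For LPS over media it took Slc7a11 just under and Sod2 (0.86) below 2-fold and Nfe2l2, Hmox1 and Nqo1 past it. There 2.98% of all genes were higher and 25.5% lower. The median of the SEA difference with LPS minus without was 0.09, and 0.41 under the hybridisation controls and 0.44 without probe sets whose ID carries a suffix (_a_at, which marks several transcripts of a gene, _s_at or _x_at), a setting that drops Txnrd1. For the wider list, the hybridisation controls gave 21 genes past 2-fold for LPS over media (10 as reported), 8 for SEA/LPS over media (4) and 6 over SEA (3), where 28.5%, 18.4% and 15.4% of all genes passed it. The lower floor gave 1 for SEA over media (0) and 5 for SEA/LPS over SEA (3), and log2(signal + 32) gave 6 for LPS over media. Without suffixed probe sets, which leaves 35 of 51 genes, the counts were 5 for LPS over media, 0 for SEA/LPS over LPS (4), 1 for SEA/LPS over media and 1 over SEA. For the lower floor, log2(signal + 32) and the removal of suffixed probe sets, no share of all genes past 2-fold is given. Whether these shifts in count are particular to the list therefore cannot be read from them. Counting the Prdx1 and Gm21399 probe set and leaving out only _s_at and _x_at probe sets were both chosen after seeing the data. Neither could change a count of the 9 genes. The first adds a gene outside them, and no probe set used for them ends in _s_at or _x_at. Of all calls, 41.8% were higher for LPS over media as deposited, 55.4% at the 75th percentile and 10.5% with the hybridisation controls; for SEA/LPS over LPS 28.6% were higher as deposited and 69.1% with the controls. For SEA/LPS over media these shares were 39.2%, 58.6% and 16.5%, and over SEA 42.3%, 61.8% and 22.0%. No paired analysis was possible because each group has 1 sample. Nqo1 with LPS, at 79.1, was the member signal of a probe set used that lay closest to the floor.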
